A study of Mus musculus with 2 samples.

Results

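Genes for capturing, taking up and handling lipid were followed across the vessel cells of PyMT and KPC tumors: Gpihbp1, Lpl, Cd36, Scarb1, Fabp4, Fabp5, Tcf15, Thrsp and Apoe. These 9 genes were picked by symbol, with earlier results of these data known, out of the 31055 features of the count tables. All 9 were found in both libraries. Endothelial cells were sorted from orthotopic tumors of wild-type female C57BL6 mice aged 6 weeks, 10 days after 100000 PyMT (mammary cancer) or KPC (pancreatic cancer) cells were implanted. Cells positive for CD45, EpCAM, Ter119, podoplanin or Annexin V had been depleted before the sort. Each tumor model gave 1 droplet-based single-cell library, and the sources used here do not state how many mice entered it. The tumor model therefore cannot be told apart from the library or the organ, no test was run, and every interval given here is a 95% interval that covers counting error only.

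Capillary endothelium is where circulating triglyceride is unloaded. GPIHBP1, a protein anchored on the capillary endothelial surface, binds lipoprotein lipase (LPL) made by neighboring parenchymal cells such as adipocytes and myocytes and carries it to the vessel lumen, where LPL splits triglyceride. The freed fatty acids are taken up with the help of CD36 and are carried inside the cell by the fatty acid binding proteins FABP4 and FABP5. TCF15, a basic helix-loop-helix factor, works with MEOX2 in heart capillary endothelium to drive fatty acid uptake genes. SCARB1 is the receptor for high-density lipoprotein, THRSP is a nuclear protein linked to lipid synthesis, and APOE is a lipoprotein component that macrophages make in quantity.

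Cells were placed in classes by summed unique molecular identifiers (UMIs, each a counted transcript) of gene pairs, applied in a fixed order. The capillary class needed at least 2 UMIs of Car4 and Cd300lg after the rules for Krt8/Krt18, fibroblast, lymphatic, pericyte, venule (Ackr1 and Selp), artery (Gja5 and Sema3g) and tip (Apln and Angpt2) cells had been applied, and cells that met no rule are called other. The PyMT library kept 11744 cells, among them 2597 capillary, 360 venule, 126 artery and 1991 tip cells. The KPC library kept 9591 cells, among them 1297 capillary, 640 venule, 105 artery and 1302 tip cells. The median capillary cell had 1879 UMIs in KPC and 4254 in PyMT. The libraries shared 151 kept barcodes, 1.29% of those in PyMT and 1.57% in KPC.

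The capillary name was checked with 6 capillary genes outside the rule (Rgcc, Btnl9, Cd34, Sparcl1, Aqp1 and Ly6c1). In KPC their summed level was 8006 CPM (UMIs per 1000000 UMIs of the class) in the capillary class, against 5748 in other, 3492 in venule, 4507 in artery and 4048 in tip cells. In PyMT the capillary class was not the highest, at 3872 CPM against 4388 in artery cells, and the other, venule and tip classes were close to it at 3381, 3114 and 3043 CPM. The pair that set the class weighed differently in each tumor, with Car4 at 976 and Cd300lg at 105 CPM in PyMT capillary cells and 524 and 593 CPM in KPC. The PyMT classes also overlapped, since 45.8% of venule and 40.0% of tip cells met the capillary rule too, against 6.56% and 14.1% in KPC. The PyMT pericyte class held 27 cells with the pericyte list (6 genes) at a summed 3227 CPM, against 67.0 CPM in capillary cells, and with Rgs5 at 1992 CPM. It also held 6 endothelial genes at 78.6% (Pecam1) to 122% (Cdh5) of their capillary level, so it is named here by its rule (Notch3 and Higd1b) only. The Krt8/Krt18 class of PyMT had an Epcam level of 19.7 CPM against 170.0 in KPC and is likewise named by its rule.

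Promoter sequences (250 bases before to 50 bases after a start site) were at hand in RefSeq (GRCm38.p6) for 3 of the 9 genes, Thrsp, Cd36 and Apoe. Those of Thrsp and Cd36 are shown because Thrsp differed most between the tumors and Cd36 is the uptake receptor, and because Tcf15 belongs to a factor family that binds E-boxes. The E-box letters CANNTG, which read the same on both strands, are in capitals. The Thrsp window is chr7:97417501-97417800 and the Cd36 window is chr5:17835847-17836146, both on the minus strand and both written 5′ to 3′.
Thrsp: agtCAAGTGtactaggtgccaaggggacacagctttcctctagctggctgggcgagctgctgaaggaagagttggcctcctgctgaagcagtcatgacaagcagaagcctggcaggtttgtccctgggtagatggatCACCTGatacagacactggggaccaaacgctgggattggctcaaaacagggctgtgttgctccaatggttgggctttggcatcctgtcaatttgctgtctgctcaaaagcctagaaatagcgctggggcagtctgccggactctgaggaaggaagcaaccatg
Cd36: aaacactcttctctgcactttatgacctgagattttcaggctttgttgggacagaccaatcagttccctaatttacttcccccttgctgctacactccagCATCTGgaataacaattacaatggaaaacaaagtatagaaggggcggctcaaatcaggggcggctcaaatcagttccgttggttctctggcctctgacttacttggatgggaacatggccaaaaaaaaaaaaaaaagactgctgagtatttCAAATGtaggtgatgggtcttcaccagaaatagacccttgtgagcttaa
Each of these windows held 2 E-boxes, the 3 Apoe windows held 0, 1 and 0, and 72.3% of the 32851 promoters in the table held at least 1. TGACCT, a nuclear receptor half-site searched on both strands, matched 1 time in the Cd36 window and not in that of Thrsp, and 16.3% of all promoters held it. These matches describe the letters only.

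The level of each gene by class shows a different picture in each tumor. In KPC tumors, 8 of the 9 genes had their highest level in the capillary class, all but Lpl. In PyMT tumors none of the 9 did. There the small Notch3/Higd1b class led for Cd36, Fabp4, Fabp5, Scarb1, Thrsp, Tcf15 and Apoe, the other cells led for Gpihbp1, and the fibroblast class led for Lpl. For Fabp5, Apoe and Lpl the lead over the next class lay within counting error. Of the 27 cells of the PyMT Notch3/Higd1b class, 12 (44.4%) met the capillary rule too. Next after this class came the capillary class for Scarb1 (211 CPM), Thrsp (8.74 CPM) and Tcf15 (34.2 CPM). For these genes the capillary lead over the class that followed lay within counting error. For Cd36, Fabp4 and Apoe venule cells came next, and for Fabp5 artery cells. Krt8/Krt18 cells, a rough guide to background, had Gpihbp1 at 149 CPM in PyMT and 36.4 CPM in KPC, and Fabp4 at 225 and 236 CPM. These cells were deeper, with a median of 6939 UMIs in PyMT and 12688 in KPC, against 4254 and 1879 in capillary cells. The same UMIs per cell thus weigh less in their CPM, above all in KPC. The guide is also uneven across genes. Fabp5 in these cells was 39.3% of its capillary level in PyMT and 15.4% in KPC, and Fabp4 8.22% and 2.56%. Whether these cells make some of the transcripts themselves was not tested.

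**Figure D1:**
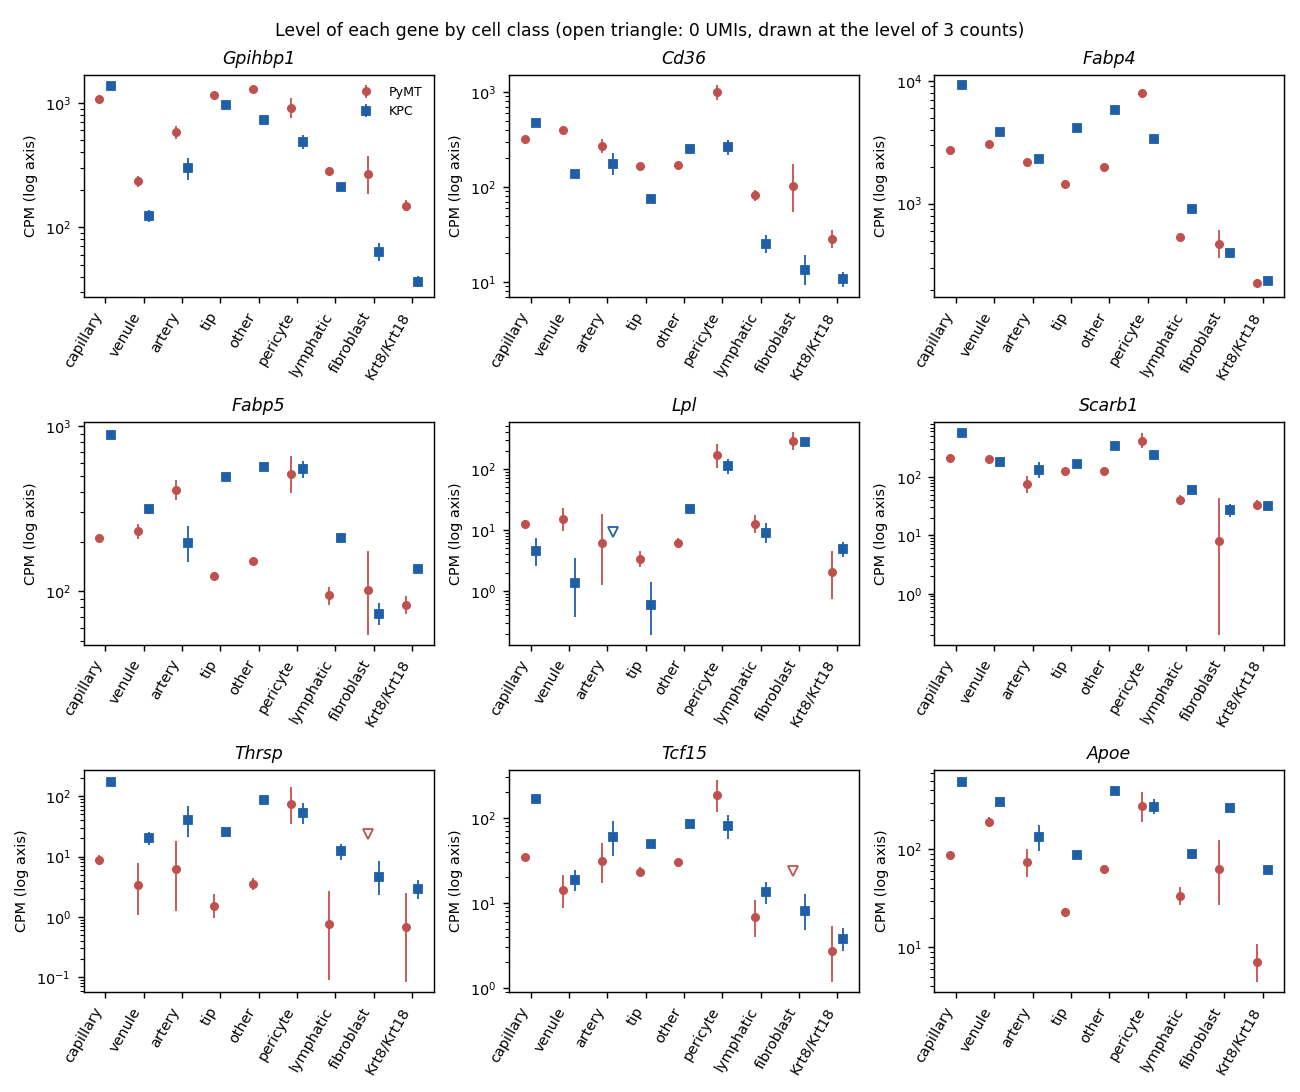
Level of the 9 genes (CPM of summed UMIs, log axis) in the 9 cell classes of the PyMT (circles) and KPC (squares) libraries, with bars for the exact Poisson 95% interval and open triangles where no UMI was found. For Fabp4, the KPC capillary class stood at 9213 CPM and the PyMT capillary class at 2742 CPM.

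Gpihbp1, the capillary docking protein for lipase (chromosome 15, 75596628 to 75599481, plus strand, GRCm38), was lowest in venule cells among the 5 blood vessel classes of both tumors. In PyMT tumors its level was 1305 CPM in other, 1168 in tip, 1076 in capillary, 582 in artery and 234 in venule cells. In KPC tumors the level was 1363 CPM in capillary, 957 in tip, 722 in other, 297 in artery and 124 in venule cells. The capillary level was 4.60-fold the venule level in PyMT and 11.0-fold in KPC. The log2 ratio of capillary over venule was 2.20 (2.05 to 2.36) in PyMT and 3.46 (3.31 to 3.62) in KPC. Against tip cells the ratio was small in both tumors and of opposite sign, at -0.12 (-0.15 to -0.08) in PyMT and 0.51 (0.46 to 0.56) in KPC.

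Lpl, the lipase that Gpihbp1 holds (chromosome 8, 68880491 to 68907448, plus strand), was scarce in endothelial classes. Its level in fibroblasts was 291 CPM in PyMT and 273 CPM in KPC, and in the Notch3/Higd1b class 168 and 109.9 CPM. Capillary cells had 12.6 CPM in PyMT, from 160 UMIs, and 4.47 CPM in KPC, from 16 UMIs. KPC artery cells had 0 UMIs, where 3 counts would make 9.27 CPM. The 21.8 CPM of the KPC other cells came mainly from few cells. Of the 246 Lpl UMIs, 79.7% were in 102 cells with at least 3 UMIs of the fibroblast list (Dcn, Lum, Pdgfra, Col3a1 and Dpt). The other cells with fewer than 3 UMIs each of fibroblast, pericyte, lymphatic and immune genes had 1.96 CPM.

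Cd36, the fatty acid receptor (chromosome 5, 17781690 to 17888801, minus strand), followed the capillary class in KPC and not in PyMT. Its KPC levels were 468 CPM in capillary, 249.7 in other, 176 in artery, 138 in venule and 75.1 in tip cells. Its PyMT levels were 400.0 CPM in venule, 321 in capillary, 273 in artery, 171 in other and 167 in tip cells. Venule cells of PyMT were therefore above the capillary class, by a log2 ratio of capillary over venule of -0.32 (-0.44 to -0.19), where KPC gave 1.77 (1.61 to 1.93). The PyMT venule class also held the adipocyte list (7 genes) at a summed 44.0 CPM, mostly from Cfd at 37.3 CPM, with Adipoq at 0.667 CPM and Plin1 and Lep at 0. In PyMT capillary cells the list summed to 8.19 CPM, and none of its genes was found in KPC venule cells. The part of these transcripts in the Cd36 level was not tested.

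Scarb1, the receptor for high-density lipoprotein (chromosome 5, 125277087 to 125341094, minus strand), was highest in KPC capillary cells, at 558 CPM against 337 in other, 181 in venule, 168 in tip and 133 in artery cells. In PyMT it stood at 211 CPM in capillary and 206 CPM in venule cells, which did not differ beyond counting error (log2 ratio 0.04, -0.13 to 0.21). PyMT artery cells were lower, at 75.9 CPM, with a log2 ratio of capillary over artery of 1.48 (1.01 to 1.99).

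The fatty acid carriers Fabp4 (chromosome 3, 10204088 to 10208576, minus strand) and Fabp5 (chromosome 3, 10012548 to 10016607, plus strand) bind fatty acids in the cytosol, and both were higher in KPC than in PyMT capillary cells. Fabp4 in KPC stood at 9213 CPM in capillary, 5819.7 in other, 4110.4 in tip, 3809.8 in venule and 2319 in artery cells. In PyMT it stood at 3072 CPM in venule, 2742 in capillary, 2184 in artery, 2007 in other and 1451 in tip cells. The log2 ratio of PyMT over KPC for Fabp4 was -0.09 (-0.22 to 0.05) in artery cells, within counting error, and -1.75 (-1.77 to -1.73) in capillary cells. Fabp5 in KPC stood in the same order of capillary, other, tip, venule and artery cells, from 889 to 195 CPM. In PyMT the artery cells had the most Fabp5 of these 5 classes, with 410.1 CPM against 211 in capillary cells, a log2 ratio of capillary over artery of -0.96 (-1.17 to -0.74).

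The regulator Tcf15 (chromosome 2, 152143561 to 152149097, plus strand) reached 167 CPM in KPC capillary cells, 85.1 in other, 58.7 in artery, 49.7 in tip and 18.4 in venule cells. Its PyMT levels were 34.2 CPM in capillary, 30.8 in artery, 30.4 in other, 23.3 in tip and 14.0 in venule cells, and capillary, artery and other cells did not differ beyond counting error. Thrsp (chromosome 7, 97412938 to 97417730, minus strand) reached 174 CPM in KPC capillary cells and lay between 20.1 and 85.2 CPM in the other 4 blood vessel classes. In PyMT it was scarce, at 8.74 CPM in capillary cells from 111 UMIs and 3.33 CPM in venule cells from 5 UMIs.

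Apoe (chromosome 7, 19696109 to 19699188, minus strand) was, like Cd36 and Fabp4, higher in venule than in capillary cells of PyMT, and it alone of these by at least 2-fold. Its PyMT levels were 189 CPM in venule, 87.6 in capillary, 73.8 in artery, 63.7 in other and 22.7 in tip cells. Its KPC levels were 489.6 CPM in capillary, 397 in other, 306 in venule, 133 in artery and 87.2 in tip cells. The log2 ratio of capillary over venule was -1.11 (-1.30 to -0.92) in PyMT and 0.68 (0.56 to 0.80) in KPC. Cells with at least 3 UMIs of immune genes were rich in Apoe. In the other class, 12 such cells held 29.5% of the Apoe UMIs in PyMT, at 11292 CPM. In KPC 55 held 9.82%, at 3586 CPM. The immune list summed to 5.33 CPM in PyMT venule and 18.1 CPM in PyMT capillary cells. In KPC the list summed to 20.8 CPM in venule and 67.1 CPM in capillary cells. The part of these transcripts in the Apoe levels was not tested.

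Counting the genes at least 2-fold higher in capillary cells gave 8 of 9 over venule cells in KPC (all but Apoe), where 6.17% of the 10225 genes with at least 20 UMIs in both classes together were that much higher. Lpl was counted there on 16 capillary and 4 venule UMIs. Over artery cells it gave 8 of the 8 genes that had enough UMIs (Lpl did not), where 13.6% of all genes were. Over tip cells it gave 7 of 9 (all but Gpihbp1 and Fabp5), where 7.50% were, with Lpl on 16 capillary and 5 tip UMIs. At 2000 UMIs per cell, Lpl was found in 0.503% of KPC capillary cells, not above the 0.635% of Krt8/Krt18 cells. The median log2 ratio of all members with enough UMIs was 1.71 over venule, 2.03 over artery and 1.75 over tip cells. The medians for all genes were 0.05, 0.06 and 0.08. In PyMT the counts were 3 of 9 over venule cells (Gpihbp1, Thrsp and Tcf15; 4.38% of all genes), 2 of 9 over artery cells (Scarb1, and Lpl on 3 artery UMIs with an interval of -0.54 to 3.33; 13.5%) and 3 of 9 over tip cells (Lpl, Thrsp and Apoe; 1.78%). Apoe was at least 2-fold lower in PyMT capillary than venule cells, as were 5.38% of all genes. The medians of the 9 genes in PyMT were -0.13, 0.33 and 0.92, beside -0.03, 0.02 and 0.01 for all genes. The PyMT counts moved with the processing: when cells were thinned to 2000 UMIs before the classes were set, they became 1, 4 and 6, with Thrsp (-0.01) and Tcf15 (-0.03) no longer higher than in venule cells, and with every cell given equal weight the count over tip cells became 8. Over lymphatic cells, which carry lymph and take no part in unloading triglyceride, 8 of 9 genes were at least 2-fold higher in PyMT capillary cells (6.61% of all genes) and 8 of 9 in KPC (10.4%), where Lpl was lower, as were 10.4% of all genes. Against tip cells, Cd36 (0.94), Fabp4 (0.92), Fabp5 (0.77) and Scarb1 (0.73) lay just under the 2-fold line in PyMT. Because the 9 genes and the class rule were chosen with earlier results of these data known, these counts are a description and not a test.

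**Figure D2:**
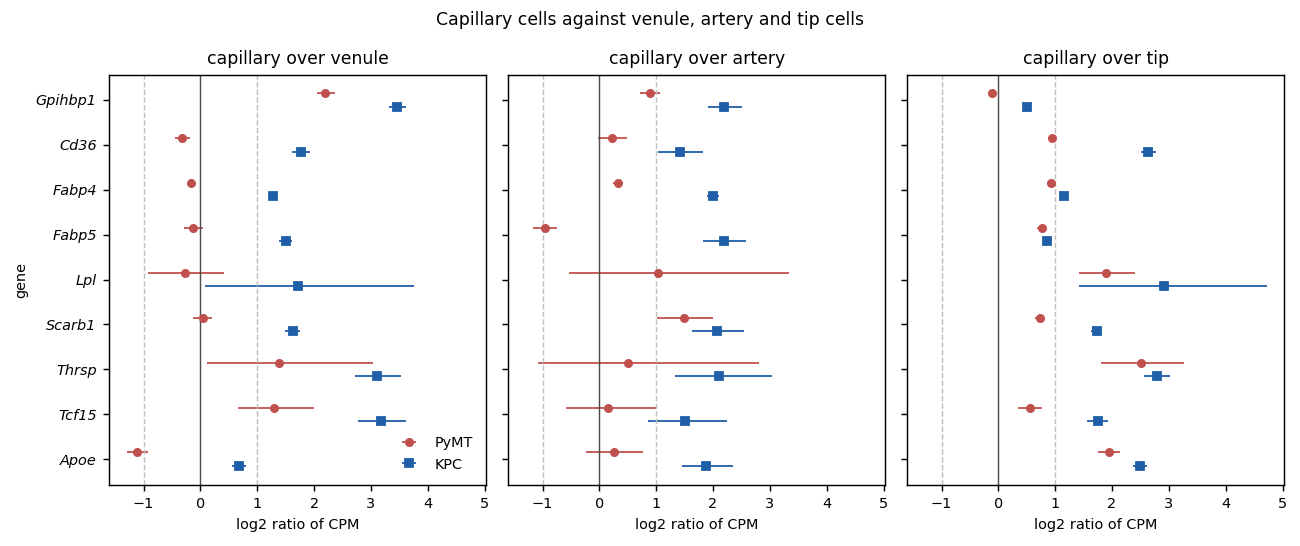
Log2 ratio of CPM in capillary cells over venule, artery and tip cells for the 9 genes in PyMT (circles) and KPC (squares), with exact 95% intervals for counting error and dashed lines at 2-fold. Lpl over artery cells in KPC is left out, since artery cells had 0 UMIs. The KPC values of 8 genes lie past the dashed line over venule cells, while PyMT values for Cd36 (-0.32), Fabp4 (-0.16) and Apoe (-1.11) lie below 0.

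Between the tumors, 6 of the 9 genes were at least 2-fold lower in PyMT than KPC capillary cells, where 11.1% of the 11191 genes compared were. The classes compared rested on different genes of the pair, mostly Car4 in PyMT and both Car4 and Cd300lg in KPC, and the part of this in the differences was not tested. Thrsp differed most, at 8.74 CPM against 174 CPM (log2 ratio -4.32, -4.62 to -4.02). Apoe (-2.48), Tcf15 (-2.29), Fabp5 (-2.08), Fabp4 (-1.75) and Scarb1 (-1.40) followed. Gpihbp1 and Cd36 were less than 2-fold apart, at -0.34 (-0.39 to -0.29) and -0.55 (-0.63 to -0.46). Lpl was higher in PyMT, at 1.49 (0.75 to 2.33), where 4.83% of all genes were at least 2-fold higher, but it turned to -0.36 when cells were thinned before the classes were set. The median of all genes was -0.14, and with scaling by trimmed mean of M values (TMM) it was 0.05.

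The difference was not the same in every class. In venule cells 1 of the 9 genes was at least 2-fold lower in PyMT, Thrsp at -2.60 (-4.27 to -1.29), beside 4.23% of all genes. Cd36 and Lpl were at least 2-fold higher there, at 1.54 (1.35 to 1.72) and 3.49 (1.94 to 5.48), beside 2.09% of all genes. In tip cells 5 of 9 were lower (Fabp4, Fabp5, Thrsp, Tcf15 and Apoe), beside 5.05% of all genes, and Cd36 and Lpl were higher, at 1.15 (1.02 to 1.28) and 2.52 (1.19 to 4.21), beside 2.44%. In artery cells Fabp5 alone of the 7 genes compared passed the 2-fold line, higher in PyMT at 1.07 (0.66 to 1.51), beside 3.06% of all genes. In other cells 7 of 9 were lower, beside 11.1% of all genes, while Gpihbp1 was higher, at 0.85 (0.82 to 0.89). Lpl was among the 7 through KPC cells with fibroblast transcripts. Other cells with under 3 UMIs each of fibroblast, pericyte, lymphatic and immune genes had 5.88 CPM of Lpl in PyMT and 1.96 in KPC. Thrsp was lower in PyMT in each of the 5 blood vessel classes, although artery cells held only 3 UMIs of it in PyMT and 13 in KPC, too few for the count above.

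**Figure D3:**
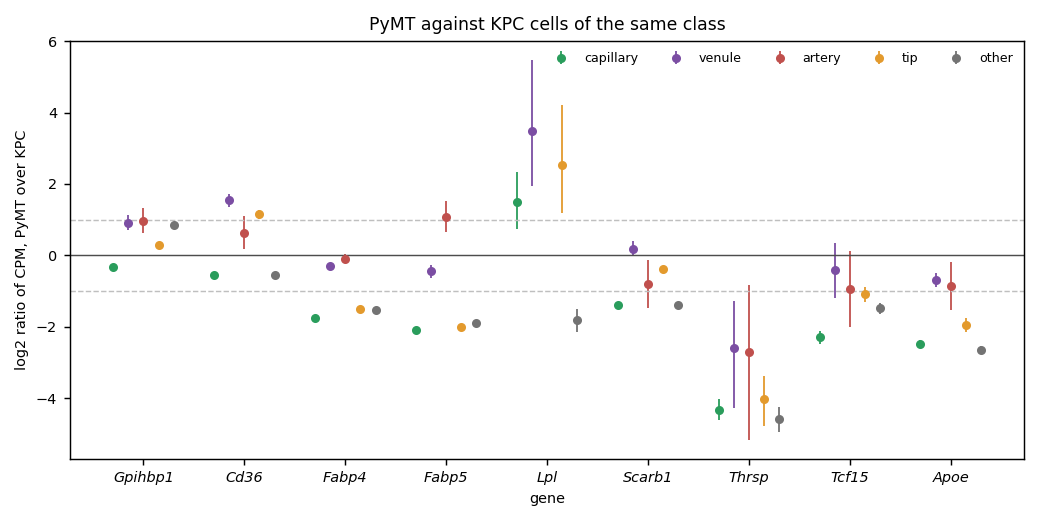
Log2 ratio of CPM in PyMT over KPC cells of the same class for the 9 genes, colored by class, with exact 95% intervals for counting error and dashed lines at 2-fold. Lpl is not drawn for artery cells, which had 0 UMIs of it in KPC. Thrsp lies below -1 in every class, from -2.60 in venule to -4.59 in other cells.

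Because the capillary class has a threshold, the genes were also read along the Car4 and Cd300lg UMIs of all blood vessel cells, each thinned to 2000 UMIs. In KPC, all genes but Lpl had a higher level at each step from 0 through 1 and 2 to 3 up to 4 or more such UMIs. Gpihbp1 went from 609.6 to 1077, 1538 and 1917 CPM in 3386, 762, 317 and 66 cells. Tcf15 went from 48.9 to 92.5, 159 and 265 CPM, and Thrsp from 36.5 to 101, 153 and 258 CPM. Cd36 went from 118 to 727 CPM and Fabp4 from 4187 to 12977 CPM between the outer groups.

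In PyMT the steps held 5750, 1734, 1208 and 663 cells and the genes parted ways. Gpihbp1 went down, from 1308 to 1221, 1082 and 951 CPM. Cd36 went from 147 to 271, 362 and 338 CPM, and Fabp4 from 1763 to 2172, 2992 and 2765 CPM. Tcf15 stayed between 23.2 and 32.0 CPM and Thrsp between 2.87 and 6.79 CPM. Cells without any Car4 or Cd300lg UMI thus had more Gpihbp1 in PyMT than in KPC, while their Cd36 levels were 147 and 118 CPM.

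**Figure D4:**
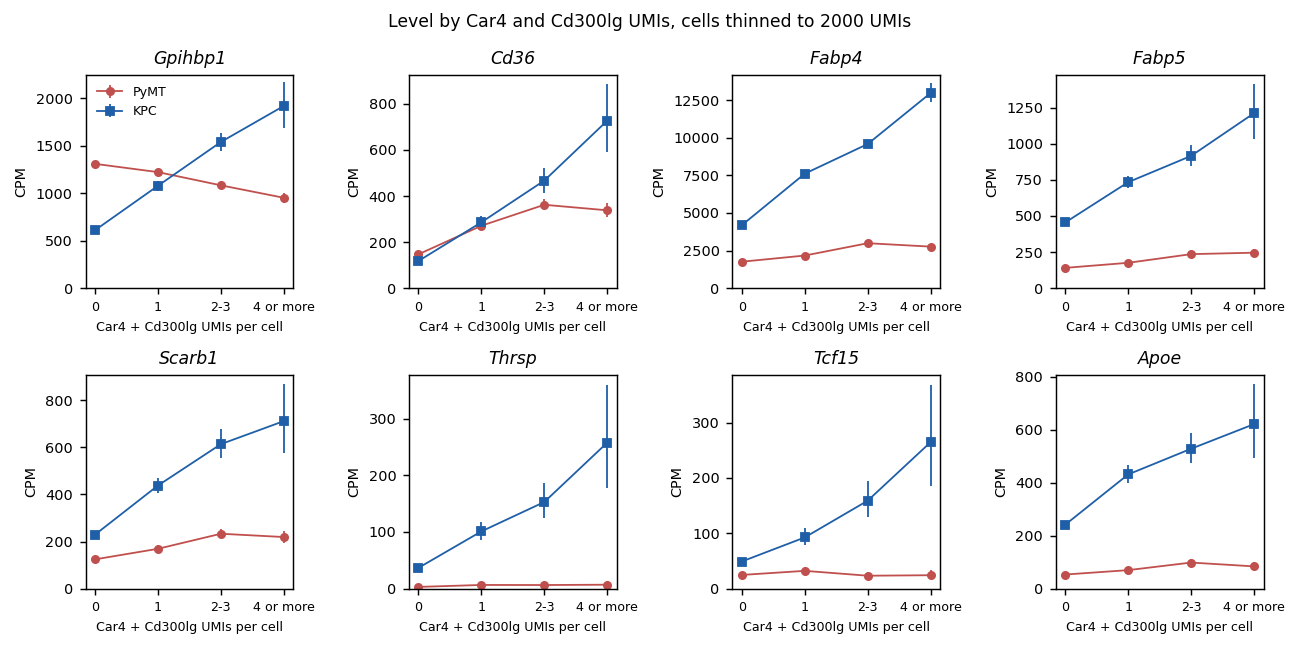
Level (CPM, linear axis from 0) of 8 genes in blood vessel cells grouped by their Car4 and Cd300lg UMIs after thinning to 2000 UMIs, in PyMT (circles) and KPC (squares), with exact Poisson 95% intervals. Lpl is left out because it had 1 UMI in the last KPC group. All 8 KPC lines go up, Gpihbp1 from 609.6 to 1917 CPM, while the PyMT line of Gpihbp1 goes down from 1308 to 951 CPM.

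Within single cells at 2000 UMIs, KPC capillary cells held more of the 9 genes at a time. At least 4 of them were found in 61.1% (57.1 to 65.1) of 597 KPC capillary cells, against 30.7% of other, 23.6% of tip, 19.1% of venule and 10.4% of artery cells. In PyMT the share was 19.3% (17.8 to 21.0) of 2367 capillary cells, 20.0% of venule, 18.7% of artery, 12.4% of other and 11.4% of tip cells. The share in Krt8/Krt18 cells, a rough guide to background, was 1.14% in KPC and 0.265% in PyMT. Before thinning these cells had a median of 12688 and 6939 UMIs, so thinning took more from them than from capillary cells. The thinning left out 700 KPC and 230 PyMT capillary cells with fewer than 2000 UMIs. Thrsp was found in 20.8% of KPC and 1.27% of PyMT capillary cells at that depth, against 0.761% and 0.265% of Krt8/Krt18 cells. Gpihbp1 was found in 76.4% and 74.1%, against 6.98% and 15.1% of Krt8/Krt18 cells, and Apoe in 44.4% and 9.04%, against 8.76% and 1.06%. Lpl, found in 0.503% of KPC capillary cells, was not above the 0.635% of Krt8/Krt18 cells.

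Pairs of genes were found together more often for some members than for others. In PyMT capillary cells Lpl and Apoe were found together in 24 cells, where the product of their shares gives 3.25, Lpl and Tcf15 in 10 (product 1.67), and Tcf15 and Apoe in 32 (product 9.95). Gpihbp1 and Cd36 were found together in 633 cells, close to the product of 627. In KPC capillary cells the largest ratio among pairs without Lpl was for Cd36 and Tcf15, found together in 88 cells (product 48.4), and Gpihbp1 and Cd36 were found together in 197 (product 176).

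The scarce genes marked a small group of PyMT capillary cells, which was chosen after these values were seen and is given as a description. Of the 2367 thinned PyMT capillary cells, 59 (2.49%, 1.90 to 3.20) held at least 2 of Lpl, Thrsp, Tcf15 and Apoe, against 151 of 597 (25.3%, 21.9 to 29.0) in KPC. The other members were high in those 59 cells. Fabp4 stood at 22246 CPM against 1663 CPM in the 2052 cells with none of the 4 genes, Cd36 at 2186 against 223 CPM, Fabp5 at 1669 against 145 CPM, Scarb1 at 779.7 against 172 CPM and Gpihbp1 at 2110.2 against 1055 CPM. The 151 KPC cells had Fabp4 at 15009.9 and Cd36 at 881 CPM, below the 59 PyMT cells. The 2 groups are not like parts of their classes, since the same rule took 2.49% of PyMT and 25.3% of KPC capillary cells. Their levels therefore do not compare the tumors.

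The 59 cells also differed in vessel markers, and not in capillary genes alone. The 6 capillary genes outside the rule summed to 7381 CPM against 3802 CPM in the PyMT cells with none of the 4 genes. The artery list (7 genes) summed to 754 against 228 CPM and the venule list (7 genes) to 3881 against 3324 CPM. The 6 endothelial genes summed to 4339 against 3102 CPM. Only the 8 tip genes (among them Esm1, Pgf and Dll4) were lower, at 373 against 912 CPM. Of the pair that set the class, Cd300lg was higher (415 against 87.7 CPM) and Car4 lower (720.3 against 1067 CPM). Genes were ranked among the 2042 with at least 10 UMIs in each group, so genes nearly absent from either group were left out. Among the leading genes were Sult1a1 (a sulfotransferase, 237 against 5.12 CPM), Cyp4b1 (178 against 4.87 CPM) and C1qtnf9 (a relative of adiponectin, 314 against 22.7 CPM). They rested on 28, 21 and 37 UMIs in the 59 cells. Igfbp3 was at 254 against 1500.2 CPM. Hemoglobin transcripts led as well, with Hba-a1 at 271 against 5.12 CPM, and so did Rgs5, a pericyte gene, at 127 against 3.17 CPM. The adipocyte list summed to 93.2 against 0.244 CPM and the pericyte list to 254 against 61.2 CPM, while the immune list summed to 8.47 and 9.02 CPM. The adipocyte sums rested on 11 UMIs of 2 genes in the 59 cells and on 1 UMI in the 2052 cells. Of the 30 pericyte UMIs in the 59 cells, 15 were of Rgs5, and the immune list had 1 UMI there. Before thinning the 59 cells had a median of 2985 UMIs and the 2052 cells one of 4628. The part of these transcripts in the levels of the lipid genes was not tested.

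In KPC the corresponding 151 cells had the capillary list at 9474 CPM against 6638 CPM in the 261 cells with none of the 4 genes, and the tip list at 801 against 1310.3 CPM. The rise was not confined to capillary genes, since the 6 endothelial genes summed to 5785 against 4138 CPM. The venule list summed to 6185 against 5080.5 CPM and the artery list to 642 against 561 CPM. The immune list summed to 328 against 13.4 CPM and the fibroblast list to 222 against 17.2 CPM there, and no adipocyte transcript was found in either group. Their part in the levels was not tested. Among the 4423 genes with at least 10 UMIs in each group, those with the largest ratios included Fmo2 (175 against 21.1 CPM). Pltp, the phospholipid transfer protein, was another, at 119 against 21.1 CPM. Fmo2 rested on 53 and 11 UMIs, and Pltp on 36 and 11.

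**Figure D5:**
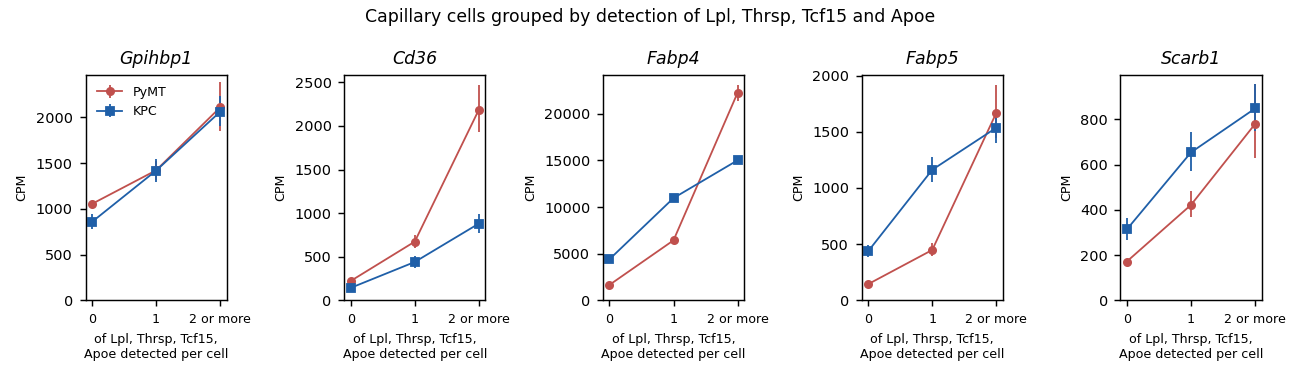
Level (CPM, linear axis from 0) of Gpihbp1, Cd36, Fabp4, Fabp5 and Scarb1 in capillary cells that held 0, 1, or at least 2 of Lpl, Thrsp, Tcf15 and Apoe, after thinning to 2000 UMIs, in PyMT (circles) and KPC (squares), with exact Poisson 95% intervals. All lines go up, and Fabp4 in PyMT reaches 22246 CPM in 59 cells.

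The small Notch3/Higd1b class of PyMT was also rich in these genes. It held Fabp4 at 7975 CPM, Cd36 at 1000 CPM, Tcf15 at 185 CPM and Thrsp at 75.6 CPM, and 16 of its 25 thinned cells (64.0%, 42.5 to 82.0) had at least 4 of the 9 genes. Compared with the PyMT capillary class, 7 of the 9 genes were at least 2-fold higher in it, where 16.7% of all genes were. In KPC, the class of the same rule held 119 cells, and Fabp4 stood at 3366 CPM and Cd36 at 261 CPM, below the capillary class in both.

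Lists of partner genes in lipid handling were read in the same way. Of 20 genes of fatty acid uptake and lipid droplets, 16 could be compared between KPC capillary and venule cells, and 3 were at least 2-fold higher (Mgll, Lipe and Aqp7), beside 6.17% of all genes. In PyMT 2 of 18 were (Dgat2 and Aqp7), beside 4.38%, and the list median was -0.01. Over tip cells 3 of 18 were that much higher in PyMT (Slc27a3, Lipe and Aqp7), beside 1.78%. In KPC 4 of 18 were (these and Mgll), beside 7.50%. Over artery cells 2 of 18 were higher in PyMT, beside 13.5%, and 4 of 16 in KPC, beside 13.6%. Slc27a3 was lower there in both tumors, 1 gene beside 9.12% and 6.31%. Lipe, hormone-sensitive lipase, stood at 60.1 CPM in capillary against 27.7 CPM in venule cells of KPC. In PyMT it stood at 13.1 against 20.7 CPM. Over PyMT tip cells its log2 ratio was 1.14 (0.74 to 1.55). Aqp7, a glycerol channel, rested on few UMIs, 23 in capillary and 1 in venule cells of KPC, and 78 and 2 in PyMT. Slc27a4 and Acsl4, a fatty acid transporter and an acyl-CoA synthetase, were less than 2-fold apart in each of the 6 comparisons of capillary with venule, artery and tip cells.

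Angptl4, an inhibitor of Lpl, was lower in capillary than venule and tip cells of KPC. Its level there was 10.6 CPM in capillary cells, against 36.5 in venule and 69.0 in tip cells, with log2 ratios of -1.78 (-2.36 to -1.24) and -2.70 (-3.21 to -2.22). In PyMT capillary cells it was 85.0 CPM, between the 66.7 CPM of venule and the 137 CPM of tip cells, and the interval of the log2 ratio of PyMT over KPC was 2.53 to 3.51. Over artery cells its log2 ratio was 1.57 (0.81 to 2.44) in PyMT and -0.22 (-1.69 to 1.73) in KPC. Of the 10 genes of lipase regulation, 4 were at least 2-fold higher in PyMT than KPC capillary cells (Angptl4, Lipg, Lipc and Pcsk6), beside 4.83% of all genes, and none was lower, beside 11.1%. Lmf1, Lmf2 and Furin, which act on the maturation or cleavage of lipases, were within 2-fold between the tumors. Over PyMT artery cells Furin was lower, at -1.64 (-2.15 to -1.08), and in KPC it was at -0.72 (-1.51 to 0.17). There 3 of the 10 genes were at least 2-fold lower in PyMT (Angptl2, Lipg and Furin), beside 9.12% of all genes. Another 2 were higher (Angptl4 and Lipc), beside 13.5%.

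Pparg, a nuclear receptor that drives Fabp4 and Cd36 in fat, was higher in KPC capillary than venule cells, at 25.7 against 7.51 CPM (log2 ratio 1.78, 1.09 to 2.52). In PyMT capillary cells it stood at 23.9 CPM, with a log2 ratio of PyMT over KPC of -0.10 (-0.45 to 0.25), within counting error. Meox2, the partner of Tcf15, stood at 3.91 CPM in KPC capillary cells, against 29.0 in venule and 8.61 in tip cells, and at 114 CPM in PyMT capillary cells. Cebpb, a transcription factor of inflammation and fat cell differentiation, stood at 154 CPM in KPC and 17.1 CPM in PyMT capillary cells.

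Of 17 genes of fatty acid oxidation, 16 could be compared, and none was 2-fold apart between capillary and venule or tip cells in either tumor, nor between the tumors. Against artery cells, Cpt1a was lower in PyMT and Cpt2 higher in KPC capillary cells by at least 2-fold, each 1 of 16 genes. Of all genes, 9.12% were that much lower in PyMT and 13.6% that much higher in KPC. Hadha, of the mitochondrial trifunctional protein, stood at 72.3 CPM in PyMT and 74.9 CPM in KPC capillary cells, and Cpt1a, the entry enzyme, at 11.3 and 15.9 CPM. Of 14 genes of fatty acid synthesis, 12 could be compared between KPC capillary and tip cells, and 3 were at least 2-fold lower (Fasn, Elovl6 and Fads2), beside 3.73% of all genes, with Fasn at 5.03 against 12.5 CPM. Over venule cells, Elovl6 was lower in KPC, 1 of 11 genes beside 3.71%. Acacb was higher than in venule cells in KPC (5.59 against 1.71 CPM, from 20 and 5 UMIs), 1 of 11 genes beside 6.17%. In PyMT it was lower (2.13 against 5.33 CPM, log2 ratio -1.33, -2.51 to 0.02, from 27 and 8 UMIs), 1 of 12 beside 5.38%. Over tip cells Acacb was higher in both tumors, at 1.98 (0.88 to 3.15) in KPC and 1.62 (0.49 to 2.89) in PyMT. These ratios rested on 12 and 9 tip UMIs. They made 1 of 12 genes in KPC, beside 7.50%, and 1 of 13 in PyMT, beside 1.78%. Over artery cells, Scd2 and Me1 were at least 2-fold lower in both tumors, 2 of 12 genes in PyMT and 2 of 11 in KPC, beside 9.12% and 6.31% of all genes. Of 15 genes of cholesterol synthesis and uptake, none was 2-fold apart between capillary and tip cells in either tumor, nor between capillary cells of the tumors.

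Of 16 genes of lipoproteins and sterol efflux, Pltp shared the KPC capillary pattern. It stood at 92.6 CPM in KPC capillary cells, 37.1 in artery, 12.6 in venule and 7.08 in tip cells, and at 5.27 CPM in PyMT capillary cells, a log2 ratio of PyMT over KPC of -4.13 (-4.53 to -3.75). Mylip, which degrades lipoprotein receptors, was also lower in PyMT capillary cells, at 26.6 against 74.4 CPM. Npc1 and Nr1h3 were within 2-fold between the tumors. In PyMT, Pltp was lower in capillary than in venule cells, at 5.27 against 10.7 CPM (log2 ratio -1.02, -1.82 to -0.13). These levels rested on 67 and 16 UMIs. With Abca1 and Nr1h3, 3 of 12 genes were at least 2-fold lower there, beside 5.38% of all genes. None of the 12 was at least 2-fold higher, beside 4.38%.

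Over the 18 points of 9 classes in 2 libraries, likeness of pattern was measured by Pearson's r of log2(CPM + 10), as a description, since points of a library share its depth and preparation. The genes most like Gpihbp1 among 9589 were Ctnnbip1 (r = 0.936), Rell1 (0.925), Nid2 (0.922), Rhog (0.916) and Fam212a (0.915). Fabp4 was most like Zfp366 (0.964), Exoc3l2 (0.961) and Unc45b (0.952), and Cd36 like Slc30a1 (0.911), Zfp366 (0.892) and Ablim1 (0.885). Scarb1 was most like Hecw2 (0.978), Zfand5 (0.938) and Hlx (0.933), and Fabp5 like Fez2 (0.894), Ifi213 (0.890) and Fabp4 (0.878).

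Thrsp was most like Id4 (0.931), Ddrgk1 (0.903) and its fellow member Tcf15 (0.898), and Tcf15 like Ccdc85a (0.956), Mcf2l (0.938) and Ptpra (0.938). Apoe had the weakest nearest genes, Nfkbiz (0.867), Socs3 (0.855) and Fosl2 (0.850). Lpl was most like Plxdc2 (0.979), Col5a3 (0.964) and Fxyd1 (0.960). Among the 9 genes, Fabp4 and Scarb1 were closest in pattern (0.932), and Lpl was the least like the others, with r from -0.217 (Scarb1) to 0.314 (Apoe).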

How the data were processed

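The authors aligned reads of 3′ droplet libraries to mm10 with Cell Ranger (3.0 per the submitters' processing notes, 3.0.2 in the file headers) and deposited UMI counts per gene and barcode, not normalized. The PyMT library held 55547926 UMIs in 12464 barcodes and the KPC library 44441942 in 10236. The kit is given as v2 in the labels and as v3 in another part of the methods. A barcode was dropped if it had fewer than 500 genes or if mt- genes held 10% or more of its UMIs (720 PyMT and 645 KPC barcodes). No doublet caller was run; 1237 PyMT and 728 KPC cells met several class rules and stayed in the first, and an alternative left them out.

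UMIs were summed per class and given as CPM of the class total with exact Poisson intervals, shares with Clopper-Pearson intervals and log2 ratios with exact conditional binomial intervals, all at 95%. They cover counting error only. Genes with at least 20 UMIs in both classes together were compared, and a gene was counted past a 2-fold ratio. Class minimums were 5 UMIs (Krt8 and Krt18), 10 (Col1a1 and Col1a2), 3 (Mmrn1 and Prox1), 2 (Notch3 and Higd1b), 3 (venule), 2 (artery), 3 (tip) and 2 (capillary). The calculation was tested on simulated data. The 9 genes, the lists and the class rule were chosen with earlier results of these data known. Named genes were the 9 genes, the 2 highest and 2 lowest of each of 7 lists by mean log2 ratio over 6 comparisons, and the 5 genes most like Gpihbp1 and 3 most like each other gene, at 10 CPM or more in at least 1 class of each library. Further genes that passed the 2-fold line, and those of the 59 and 151 cells, were named after their values were seen. Some genes these rules pick are not reported here. Alternatives covered the barcode filter, TMM scaling (edgeR 4.0.16), equal weight per cell, thinning to 2000 UMIs, the order and thresholds of the class rule, and leaving out cells of several classes, immune-marked cells or the deepest 8%. Python 3.11.15, numpy 2.4.6, scipy 1.17.1, pandas 2.3.3 and R 4.3.3 were used. Positions are from the GENCODE annotation of GRCm38.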

Additional observations from a re-analysis of the deposited data

Results flagged for a closer look

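Capillary cells were compared here with venule, artery, tip and other cells. For 6 of the 9 genes, a ratio had the opposite direction in the PyMT and KPC libraries, with neither interval reaching 0. Over the Notch3/Higd1b class, which was not part of this search, Cd36, Fabp4, Fabp5, Scarb1, Thrsp, Tcf15 and Apoe had opposite directions as well. With 1 library per tumor model the difference between the tumors was not tested in any of these cases. Over venule cells the log2 ratio was -0.32 in PyMT and 1.77 in KPC for Cd36, -0.16 and 1.27 for Fabp4, and -1.11 and 0.68 for Apoe. Over artery cells it was -0.96 and 2.19 for Fabp5. Over tip cells it was -0.12 and 0.51 for Gpihbp1. Over other cells it was -0.28 and 0.92 for Gpihbp1, and 1.03 and -2.29 for Lpl. The KPC value for Lpl rests on few cells, since 102 other cells with fibroblast transcripts held 79.7% of the Lpl UMIs. Other cells with under 3 UMIs each of fibroblast, pericyte, lymphatic and immune genes had 1.96 CPM of Lpl in KPC, against 4.47 in capillary cells. In PyMT the same part had 5.88 CPM, against 12.6 in capillary cells. The capillary classes were not filtered in this way, so the part of such marked cells in the opposite direction for Lpl was not tested.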

How the results depend on the processing

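Over 10 alternatives, 63 of 70 values of the 7 counts of genes past the 2-fold line stayed within 1.5 times the reported count, and all 7 that did not were in PyMT. The count over tip cells (3) became 8 with every cell given equal weight, 6 with cells thinned to 2000 UMIs before the classes were set, and 5 without the deepest 8% of cells. The count over venule cells (3) became 1 with thinning and 1 with thresholds raised by 2 UMIs, and that over artery cells (2) became 4 and 4. Of 428 values for ratios that were past the line, 425 kept their direction and 402 stayed past it. With thinning, Thrsp (-0.01) and Tcf15 (-0.03) over venule cells in PyMT and Lpl in PyMT over KPC capillary cells (-0.36) turned. In KPC, Lpl over venule cells ranged from 0.11 to 2.89. Fabp4 over venule cells in PyMT ranged from -0.32 to 0.22. The cause was not tested. Depth limits Lpl and Thrsp most, with 16 and 111 UMIs in the KPC and PyMT capillary class. No paired analysis was possible because each tumor model has 1 library.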
